A study of Homo sapiens with 45 samples.

Results

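Contacts between different chromosomes that recurred across treatments were examined in a capture Hi-C study of poised enhancers. A contact is a pair made of a captured fragment, the bait, and a second fragment, the other end. A pair was taken as recurring when bait and other end lay on different chromosomes and its score was at least 5 in 2 or 3 of the 3 pooled profiles. In all, 942 pairs met this rule, out of 281836 listed pairs between chromosomes and 434524 listed pairs of any kind. Of them, 933 joined nuclear fragments at both ends, 5 had a mitochondrial other end and 4 had a mitochondrial bait. Recurring pairs were thus 0.334% of all listed pairs between chromosomes and 0.331% of those with both ends nuclear.

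The cells were HNES1, an established human embryonic stem cell line, collected on day 5 of the transition from the naive to the primed state. They had been exposed, from 24 h before day 0, to DMSO, to UNC6852 at 2.5 µM (a degrader that targets the Polycomb subunit EED) or to UNC1999 at 1 µM (an inhibitor of the histone methyltransferases EZH1 and EZH2). The medium of every group held XAV939, an inhibitor of tankyrase. Each condition had 15 libraries from 3 biological replicates, with 4 libraries of each replicate in batch 1 and 1 in batch 2, and the files hold 1 pooled score per condition. The doses differ, so the compounds are not compared in strength, and no expression assay was used here to check the cell type by its markers. With 1 pooled value per condition no difference has a replicate check, no test was made, and the read depth behind a score is unknown.

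In Hi-C, DNA that lies close together in the nucleus is cut, joined and sequenced, and most joined reads link fragments of the same chromosome. Polycomb complexes are known to bring some of their distant target genes together in embryonic stem cells. The human genome also holds sequences present in several nearly identical places: processed pseudogenes, repeats and duplications beside centromeres and chromosome ends, the pseudoautosomal regions shared by X and Y, and nuclear copies of mitochondrial DNA. The sequence identity of the paired fragments was not examined here.

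The sequences of 3 promoters that lie wholly within recurring fragments are shown because their contacts are described in the results. DUSP22, a dual-specificity phosphatase, lies in the bait with the third largest number of partners. SIRT1, a deacetylase, lies in a bait with 1 partner. PDPK1, a kinase that activates AKT, lies in an other end. SIRT1 and PDPK1 fall outside the rule for naming and were picked with their scores in view. The windows run from 250 bases before to 50 bases after the start in RefSeq on GRCh38.p14, at chr6:292237-292536, chr10:67884406-67884705 and chr16:2537771-2538070, all on the plus strand.

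DUSP22: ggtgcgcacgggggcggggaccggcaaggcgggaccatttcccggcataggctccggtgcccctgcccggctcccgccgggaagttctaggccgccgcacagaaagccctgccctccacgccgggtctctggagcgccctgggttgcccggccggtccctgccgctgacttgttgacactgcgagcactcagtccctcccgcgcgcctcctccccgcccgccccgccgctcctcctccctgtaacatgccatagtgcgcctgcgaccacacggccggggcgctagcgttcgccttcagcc
SIRT1: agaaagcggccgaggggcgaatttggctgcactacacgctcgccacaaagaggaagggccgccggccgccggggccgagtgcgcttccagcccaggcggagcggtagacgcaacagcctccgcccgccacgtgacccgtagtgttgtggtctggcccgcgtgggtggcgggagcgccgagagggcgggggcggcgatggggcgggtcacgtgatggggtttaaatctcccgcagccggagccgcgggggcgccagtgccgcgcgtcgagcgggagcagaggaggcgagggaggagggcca
PDPK1: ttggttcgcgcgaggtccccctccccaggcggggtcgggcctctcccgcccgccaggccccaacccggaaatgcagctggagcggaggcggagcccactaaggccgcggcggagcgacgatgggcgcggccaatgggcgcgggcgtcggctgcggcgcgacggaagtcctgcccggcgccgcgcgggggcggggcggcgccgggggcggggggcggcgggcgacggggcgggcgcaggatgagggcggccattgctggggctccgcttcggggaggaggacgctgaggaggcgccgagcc

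Each window was searched for GATC, the DpnII cutting site used to make the fragments, and on both strands for TTCCCGC, a motif known for E2F factors, among them E2F6 of a variant Polycomb complex. Neither motif occurred in the 3 windows, so no base is in capitals. A bait is 1 fragment between GATC sites, so the lack of GATC at DUSP22 and SIRT1 follows from their choice as windows within baits. Among 35116 RefSeq promoter windows of this length, 41.7% held GATC and 6.55% held TTCCCGC. The CpG dinucleotides numbered 33 at DUSP22, 39 at SIRT1 and 47 at PDPK1, against a median of 14 over all windows (quartiles 4 and 28). These 3 windows do not stand for all promoters in recurring fragments: that of COX6A1, wholly within an other end on chromosome 12, held 22 CpG dinucleotides and 1 GATC.

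The recurring nuclear pairs came from few baits. Only 412 baits, 1.51% of the 27333 listed, took part, with 791 different other ends. A single partner was found for 331 baits, 37 had 2, 20 had 3 and 4 had 4. The other 20 baits, with at least 5 partners each, held 452 of the 933 pairs (48.4%) and are given apart as many-partner baits. The other 392 baits held 481 pairs.

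Scores of the recurring pairs spanned a wide range in each profile. Of the 933 pairs, 364 (39.0%, exact 95% interval 35.9 to 42.2) reached the threshold in 3 profiles, where 0.129% of all listed nuclear pairs did. Of the rest, 220 were called in DMSO and UNC6852, 140 in DMSO and UNC1999 and 209 in UNC6852 and UNC1999. These intervals cover counting error over pairs only, and pairs of a bait share their source. Pairs of many-partner baits were called in 3 profiles in 252 of 452 cases (55.8%, 51.0 to 60.4) and pairs of other baits in 112 of 481 (23.3%, 19.6 to 27.3). The scores chose these members, so all of their values are descriptions.

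Scores at many-partner baits were the higher ones. Their median score was 23.0 under DMSO, 19.8 under UNC6852 and 19.1 under UNC1999. At other baits the medians were 6.26, 6.50 and 6.14 in the same order, close to the threshold. The second highest of the 3 scores was at least 10 in 391 of the 452 pairs of many-partner baits and in 184 of the 481 pairs of other baits. The 3 weakest members had a second score of 5.00, and the 3 strongest pairs left out had 4.97. Pairs also shared exact score values: 724 pairs called in DMSO had 434 distinct scores, 793 in UNC6852 had 424 and 713 in UNC1999 had 394.

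When a nuclear pair was called in 2 profiles, its score in the remaining profile was mostly 0. This was so for 175 of 209 pairs not called in DMSO (83.7%), 102 of 140 not called in UNC6852 (72.9%) and 179 of 220 not called in UNC1999 (81.4%). At other baits the shares at 0 were 91.7%, 84.7% and 94.3%, and at many-partner baits 60.4%, 60.3% and 58.2%. A recurring pair of a bait with few partners was therefore, in most cases, either called or at 0.

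**Figure D1:**
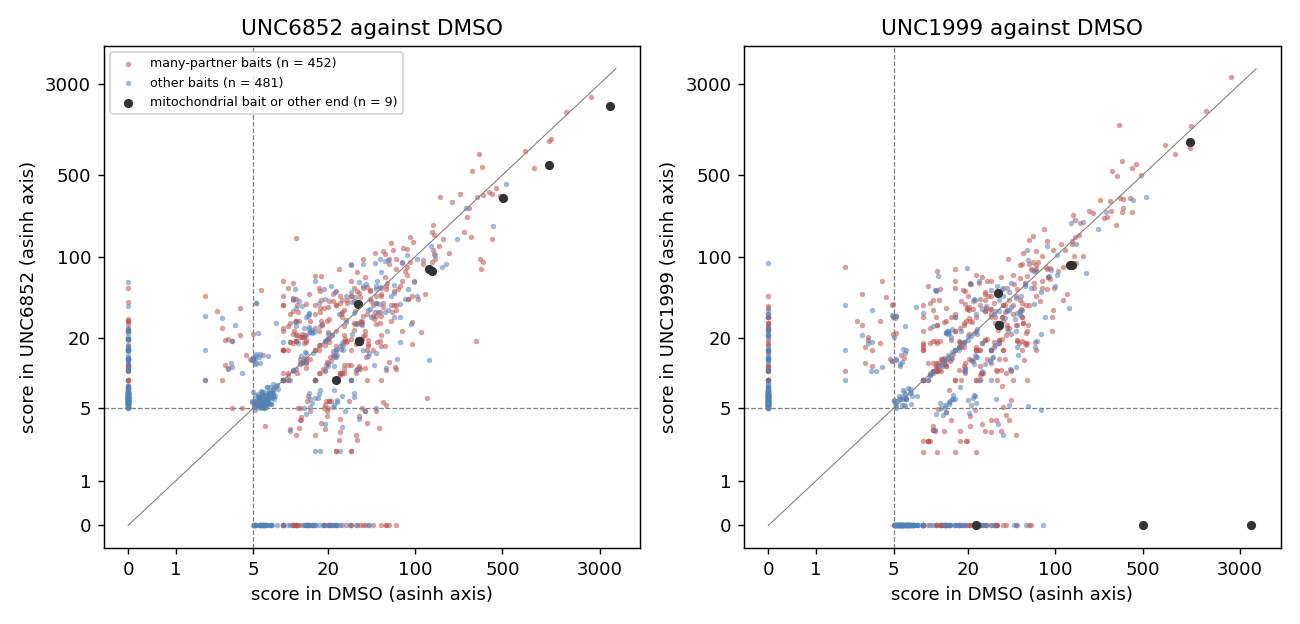
Score of each recurring pair in UNC6852 (left) and in UNC1999 (right) against its score in DMSO, on asinh axes. Each point is 1 of the 942 pairs, dashed lines mark the score of 5 and the solid line equal scores. Points of many-partner baits lie higher along the diagonal, many pairs of other baits lie just above 5 or on the axis at 0, and 3 mitochondrial pairs lie at 0 in UNC1999.

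Among the baits with many partners, one near the centromere of chromosome 1 stood first. This fragment, chr1:125183675-125184134, had 176 recurring partners on 9 other chromosomes, 18.9% of all nuclear recurring pairs, and 119 of them were called in 3 profiles. The partners lay mainly on chromosome 16 (62), chromosome 7 (35) and chromosome 10 (28). The bait overlapped no annotated gene, and its nearest protein-coding gene was 3721 kb away. Its strongest partner, chr10:41843362-41849792, scored 2558 under DMSO, 2336 under UNC6852 and 3433 under UNC1999. The next, chr10:42092964-42098614, scored 1613, 1720 and 1762. These were the highest scores of any nuclear member in each profile. The median over its 176 partners was 36.1, 26.9 and 32.6 in the same order.

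The second bait, chr22:23431242-23431575, pointed to 1 region of chromosome 7. Of its 72 partners, 71 lay on chromosome 7 between positions 959718 and 2226765, a span of 1267 kb, and 33 of the 72 were called in 3 profiles. The highest scores fell in MAD1L1, which encodes a spindle checkpoint protein. The fragment chr7:1874493-1879495 scored 343 under DMSO, 588 under UNC6852 and 663 under UNC1999, and its neighbour chr7:1879496-1884985 scored 392, 354 and 320. The order of the 3 profiles thus differed between these adjoining fragments. Only 4 pairs within chromosome 22 were listed for this bait, against 161 between chromosomes. A nearby bait within 1 kb of the long non-coding RNA gene LINC01659, chr22:23431813-23432795, had 5 partners, all on chromosome 7 between 1863297 and 1964756.

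The DUSP22 bait, chr6:291935-293825, holds the promoter printed above. It had 38 partners, 35 of them on chromosome 16 between 32350978 and 33829885, and 19 of the 38 were called in 3 profiles. Its strongest partner, chr16:33587600-33592731, scored 47.9 under DMSO, 108 under UNC6852 and 46.1 under UNC1999. The next, chr16:33603564-33608826, scored 41.4, 32.4 and 94.9. Each was highest in a different compound, and no protein-coding gene overlapped either.

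A bait near the centromere of chromosome 16, chr16:46390065-46390538, had 36 partners on 9 chromosomes, 17 of them on chromosome 7. Its 2 strongest partners were captured fragments themselves. The fragment chr7:62349942-62350687 scored 900 under DMSO, 574 under UNC6852 and 751 under UNC1999, and chr7:58033023-58033710 scored 349, 336 and 261. Both chromosome 7 fragments were also many-partner baits, each with 5 partners, all on chromosome 16. This chromosome 16 bait had 198 recurring pairs within its own chromosome as well.

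The next baits in order had between 9 and 17 partners. The bait chr4:49511067-49511391 had 17, on chromosomes 2, 21 and 22, and its strongest partner on chromosome 2 scored 53.6 under DMSO, 54.0 under UNC6852 and 35.0 under UNC1999. The bait beside it, chr4:49510289-49511066, had 10. A bait in the long non-coding RNA gene FAM230C, chr13:18215365-18216575, had 16 partners, all on chromosome 21, led by a fragment in BAGE2 at 42.0, 19.2 and 42.4. The bait chr2:161279767-161280562 had 14 partners, and the one at chr4:190105425-190110545 scored 61.5 under DMSO, 86.6 under UNC6852 and 137 under UNC1999. A second chromosome 16 bait, chr16:46390694-46391459, had 9.

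The remaining bait of these 10 lies in CD99, chrX:2693663-2694703. CD99 encodes a cell surface glycoprotein and lies in a pseudoautosomal region, a stretch that X and Y share. All 9 of its partners were on Y, between 2787159 and 2903239, and 3 were called in 3 profiles. The partners overlapped RPS4Y1 and SRY. Since Y also holds the stretch of the bait, contacts listed from it to Y cannot be told apart from contacts within Y. In the opposite direction, the bait chrY:56726450-56728183 had 5 partners, all on X between 155950314 and 156003494. These overlapped IL9R, and whether their reads could also come from Y was not examined. Contacts between X and Y in the region of CD99 were listed from 6 baits, with 19 recurring pairs, 4 of them in 3 profiles.

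**Figure D2:**
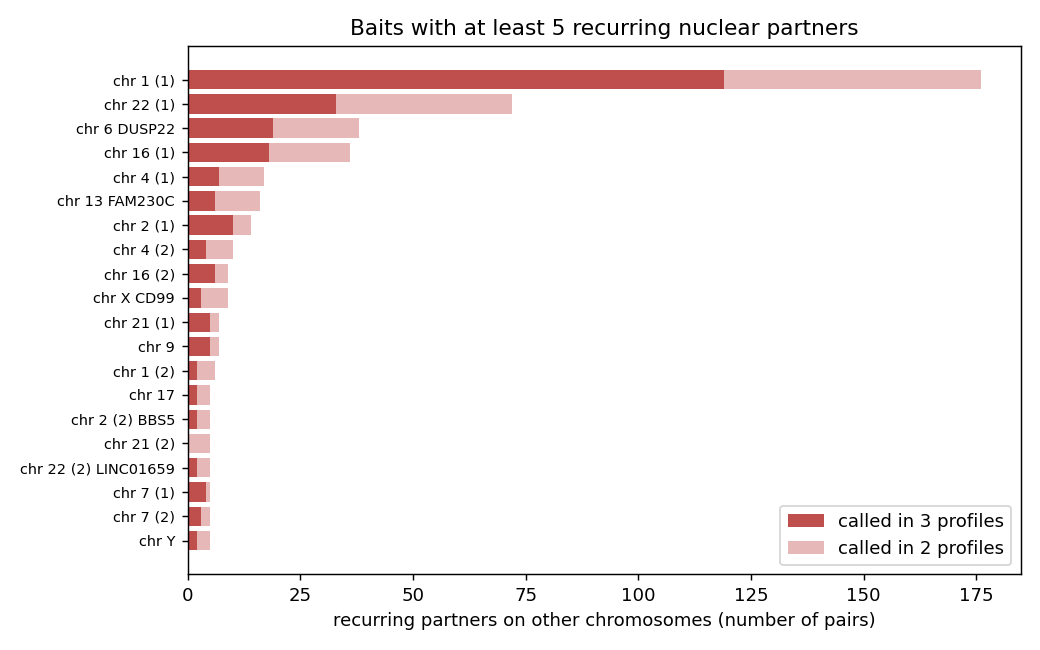
Number of recurring partners on other chromosomes for each of the 20 many-partner baits, named by chromosome and gene. Dark bars count pairs called in 3 profiles and light bars those called in 2. The first bait, on chromosome 1, has 176 partners, the next 3 have 72, 38 and 36, and no other has more than 17.

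For baits whose partners were confined to a narrow region, scores were highest around 1 position and lower away from it. From the chromosome 22 bait, the 16 listed pairs within 50 kb of the strongest partner had a median of 49.6 (of each pair's mean over the 3 profiles), and all 16 were recurring. Between 50 and 200 kb the median was 15.0, with 30 of 49 recurring, and between 200 and 2000 kb it was 6.23, with 25 of 92. From the DUSP22 bait the medians over the same distances were 22.9, 14.3 and 4.95, and none of its 62 listed pairs farther along chromosome 16 was recurring. From the FAM230C bait the first and second medians were 14.7 and 4.93, and from the CD99 bait 10.9 and 4.52. In each of the 4 cases every distance class given had a lower median than the one nearer to the centre. Single profiles did not all decline: from the CD99 bait the UNC1999 median was 0 within 50 kb and 0 between 50 and 200 kb. The centre was chosen by its score and is counted in the nearest class, so its own height is no finding. The 4 baits were also picked because their recurring partners lay close together. The decline is therefore partly built in and is given as a description.

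**Figure D3:**
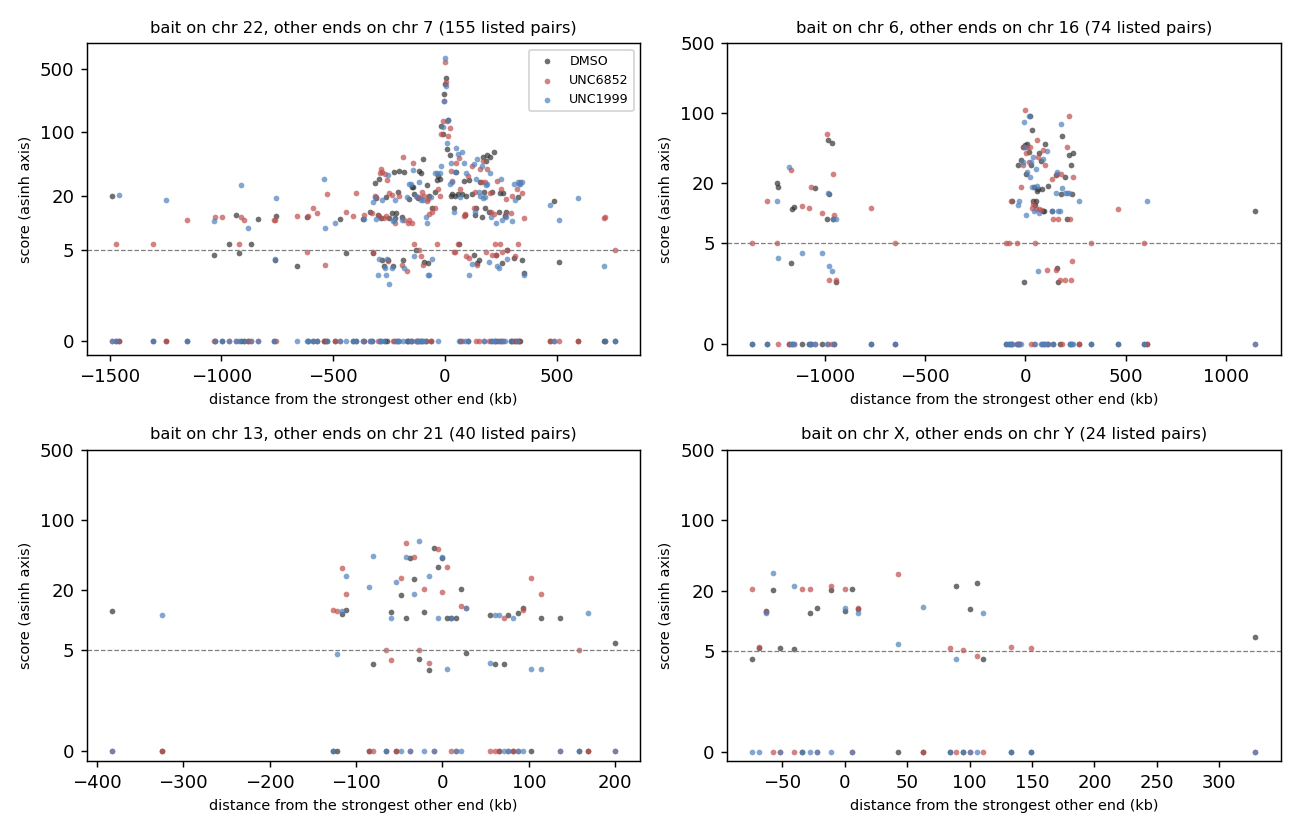
Scores of all listed pairs around the strongest partner of 4 baits, against the distance in kb from that partner, with 1 point per pair and profile on an asinh axis and a dashed line at 5. Points rise towards distance 0 for the baits of chromosomes 22, 6 and 13, with scores above 500 for chromosome 22. The X bait has few points and none above 30.

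Most many-partner baits were far from genes. Of the 20, 15 overlapped no annotated gene within 1 kb, 15 lay more than 100 kb from a protein-coding gene and 4 more than 1000 kb. Only 3 lay in or within 1 kb of a protein-coding gene: those of DUSP22, CD99 and BBS5, a component of the BBSome of cilia. The BBS5 bait, chr2:169479881-169480744, had 5 partners on 5 chromosomes, with a median score of 22.7 under DMSO, 6.33 under UNC6852 and 5.60 under UNC1999. Counted by pair, the bait overlapped a protein-coding gene in 11.5% of many-partner pairs, 37.0% of pairs of other baits and 51.0% of pairs called in 1 profile. It lay more than 1 Mb from one in 42.5%, 4.57% and 0.553%. These shares count a bait once per pair. The share over all listed baits was not computed, and some of the 20 baits lie beside each other.

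Some other ends were shared by several baits. Of 791 other ends, 694 were reached by 1 bait, 70 by 2, 17 by 3, 5 by 4, 2 by 5 and 3 by 6. Those reached by 6 were chr10:41843362-41849792, chr7:58033023-58033710 and chr7:62349942-62350687, the same fragments that led the partner lists of the chromosome 1 and chromosome 16 baits. When fragments within 1 Mb of each other were joined, the 933 pairs formed 435 pairs of regions. Of these, 372 held a single pair, and 18 held at least 10 each and 402 pairs in all (43.1%). In 16 pairs of regions, with 182 pairs (19.5%), baits on both sides reported the contact.

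The region chr1:125065174-125184134 was in many of these. It was joined to chr16:31528164-34959566 by 36 pairs from 1 bait, to chr10:41838228-42818413 by 35 pairs from 6 baits and to chr7:60909484-63019334 by 34 pairs from 6 baits. It was joined to chr16:46381705-46424876 by 21 pairs from 3 baits. Of the 35 pairs with chromosome 10, 28 were called in 3 profiles. The region pair with the most members was that of chromosome 22 and chromosome 7, with 76 pairs from 2 baits.

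**Figure D4:**
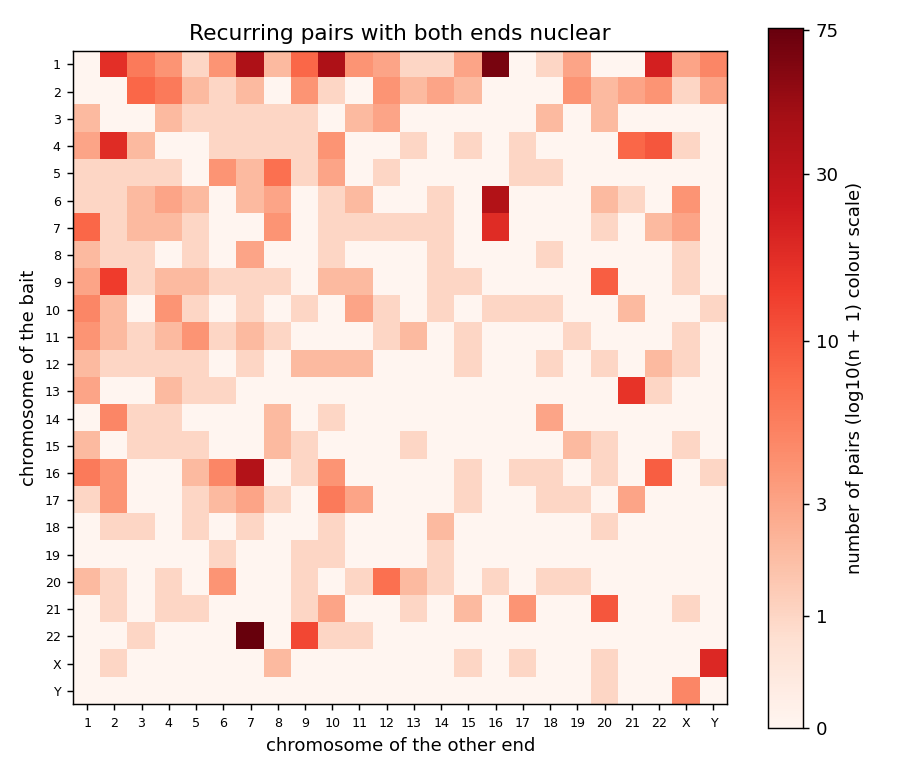
Number of recurring nuclear pairs by the chromosome of the bait (rows) and of the other end (columns), on a log10(n + 1) colour scale. The darkest cells are baits of chromosome 22 with chromosome 7, of chromosome 1 with chromosomes 16, 7 and 10, of chromosome 6 with chromosome 16 (36 pairs) and of chromosome 16 with chromosome 7 (35). Next are chromosome 1 with 22 (22 pairs), X with Y (19), and chromosome 4 with 2 and 7 with 16 (18 each).

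Among the 481 pairs of other baits, the highest score belonged to pseudogenes of RHOQ. The bait chr14:49599781-49600362, in RHOQP1 and LRR1, paired with chr2:131458794-131463927 in RHOQP2 and scored 531 under DMSO, 414 under UNC6852 and 324 under UNC1999. The nearby bait chr14:49600579-49601140 gave 129, 12.9 and 36.2 with the same other end. The bait between them, chr14:49600363-49600578, gave 78.8, 87.3 and 0. Neighbouring baits therefore named the same partner with different orders of the profiles. RHOQP1 and RHOQP3 were captured from both ends: 33.9, 26.2 and 56.4 from the chromosome 14 bait, and 37.3, 25.8 and 53.3 from chr2:130212901-130213117.

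In 12 of the 481 pairs (2.49%) the ends overlapped or lay within 1 kb of a gene and a pseudogene, or 2 pseudogenes, named after the same parent gene. Of 280518 nuclear pairs between chromosomes called in 1 profile, 12 did so (0.00428%), and none of the 452 pairs of many-partner baits did. Of the 12 recurring pairs, 7 were of RHOQ. Another 3 joined ATP1B3P1 on chromosome 2 to ATP1B3 on chromosome 3, which encodes a beta subunit of the sodium-potassium pump. These scored 47.5 under DMSO, 88.1 under UNC6852 and 29.1 under UNC1999 at the first bait, 51.5, 39.0 and 31.6 at the second and 6.23, 5.61 and 14.9 at the last. The remaining 2 joined BMS1, a ribosome assembly factor, or its pseudogene BMS1P14 to BMS1P23 and were at 0 in UNC6852. Among pairs of other baits with a second score of at least 10, the share was 10 of 184 (5.43%), and among the rest 2 of 297 (0.673%). The split is by a score that chose the members. All of these pairs are of RHOQ, ATP1B3 or BMS1, partly from neighbouring baits, so it is only a description. Shared gene names are only a partial measure of copies, since unannotated ones are not counted.

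Other high-scoring pairs had a protein-coding gene in or within 1 kb of at least 1 end. The bait chr17:73312761-73313280, within 1 kb of CDC42EP4, an effector of the GTPase CDC42, met chr1:22763058-22768260 in EPHB2, a receptor tyrosine kinase, at 217 under DMSO, 142 under UNC6852 and 172 under UNC1999. The AKIRIN2 bait, chr6:87680345-87680849, scored 85.5, 104 and 122 with chr21:42955486-42960556. AKIRIN2 encodes a nuclear protein needed for nuclear import of proteasomes. The bait chr4:156000290-156001163 scored 165, 80.9 and 197 with chr15:73577319-73582401 in NPTN, a cell adhesion gene. All of these were called in 3 profiles, and no compound was on the same side of DMSO in all of them.

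The bait chr16:8982708-8983191 met chr5:171400312-171405681 in NPM1, the gene of the nucleolar protein nucleophosmin, at 57.1 under DMSO, 92.0 under UNC6852 and 55.6 under UNC1999. The UBP1 bait, chr3:33424822-33425877, met chr7:131429071-131434123 in MKLN1 at 53.2, 73.5 and 45.9. UBP1 encodes a transcription factor and MKLN1 a subunit of a ubiquitin ligase. In both pairs UNC6852 had the highest score and UNC1999 the lowest.

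Several of the highest scores joined fragments with no protein-coding gene in or within 1 kb of either end, at distances down to 2.40 kb. The pair of chr13:94996930-94997823 and chr6:17745516-17750633 scored 255 under DMSO, 263 under UNC6852 and 239 under UNC1999. The pair of chr18:899949-902009 and chr14:82892482-82899000 scored 420, 181 and 303. The bait chr1:181205540-181206617 scored 133, 124 and 195 with chr11:121784438-121790293. The first of these hardly moved between profiles, whereas the second was lower in both compounds. The last bait also reached the fragment that holds the PDPK1 promoter, chr16:2533038-2538742, at 59.2, 22.9 and 113.

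The SIRT1 bait, chr10:67883985-67886008, holds the promoter printed above. It met chr18:36538673-36543863 in FHOD3, a formin of muscle cells, at 21.1 under DMSO, 56.5 under UNC6852 and 58.4 under UNC1999. Both compounds were above DMSO in this pair.

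From FAM230I on chromosome 22, the bait chr22:23485778-23486099 reached 3 fragments of chromosome 9, of which 2 adjoin. The adjoining ones scored 103 under DMSO, 94.9 under UNC6852 and 70.1 under UNC1999 at chr9:129429695-129434869, and 38.0, 86.6 and 46.1 at chr9:129423293-129429694. The last, chr9:129438613-129443690, scored 15.7, 62.0 and 30.7. In all, 12 recurring pairs from 5 baits joined this stretch of chromosome 22 to chr9:129423293-129443690, and 10 of them were called in 3 profiles. The orders of the profiles again differed between adjoining fragments.

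The other named pairs of highest score were spread over the genome. The bait chr21:8988810-8989943 scored 145, 103 and 129 with chr2:161280563-161285663, the fragment beside the many-partner bait of chromosome 2. The bait chr9:41225078-41230609 scored 175, 87.2 and 73.0 with chr4:189269600-189275046. The bait chr6:95801630-95802477 scored 60.2, 94.2 and 93.0 with chr5:42397906-42403079. Each triple is in the order DMSO, UNC6852, UNC1999, and the first and second of these pairs were highest in DMSO, the last in UNC6852. Between chromosomes 16 and 7, the baits chr7:61055671-61056602 and chr16:34610088-34610492 gave 3 such pairs, with scores from 48.5 to 98.3. The bait chr16:75921159-75921909 scored 64.2, 46.1 and 54.0 with chr17:62085274-62090394. The bait chr1:125166090-125167028 scored 48.6, 40.02 and 43.9 with chr7:60923812-60929622, and so repeated the contact between these regions of the first many-partner bait.

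Fragments at chromosome ends met each other in 16 of the 481 pairs (3.33%), where an end is 1 Mb from the first base or from the last listed base. Of the pairs called in 1 profile, 416 of 280518 (0.148%) did so. The highest joined DEFB126, a beta-defensin gene on chromosome 20, to the WASH8P pseudogene region at chr12:18076-25374, with 103 under DMSO, 46.1 under UNC6852 and 103 under UNC1999. From 3 baits in or within 1 kb of MYT1, which encodes a neural zinc finger protein, chr12:42256-47547 was reached. The bait chr20:64164368-64165275, which overlaps the gene, scored 9.91 under DMSO, 3.16 under UNC6852 and 10.1 under UNC1999. The baits outside it scored 25.0, 2.03 and 8.82 at chr20:64164051-64164367 and 0, 15.9 and 23.2 at chr20:64162088-64163872. The adjoining baits chr20:64164051-64164367 and chr20:64164368-64165275 were thus both below the threshold in UNC6852, and chr20:64162088-64163872 in DMSO. The bait chr20:64164051-64164367 also met chr1:188478-193836, at 9.91 under DMSO, 0 under UNC6852 and 9.62 under UNC1999. The MYT1 pairs fall outside the rule for naming and were picked with their scores in view.

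Recurring pairs had an other end inside a gene less often than pairs called in 1 profile. A protein-coding gene overlapped the other end in 76 of 452 pairs of many-partner baits (16.8%), in 180 of 481 pairs of other baits (37.4%) and in 48.7% of the pairs called in 1 profile. The other end lay a median of 217 kb, 15.2 kb and 1.13 kb from the nearest protein-coding gene in the same order. It lay more than 1 Mb from one in 21.0%, 9.15% and 1.99% of pairs. The pairs are not independent: the first chromosome 1 bait holds 176 of the 452 and the chromosome 22 bait 72, often on adjoining fragments. The values for many-partner baits thus describe few regions. Gene ends gave another order: the other end was within 1 kb of one in 2.21%, 10.2% and 8.86% of pairs, so that pairs of other baits had the highest share. In gene overlap and distance, the other ends of many-partner baits were near those of recurring contacts within a chromosome over more than 2 Mb. Those 737 pairs, from 125 baits, had 18.3% in a gene and a median of 205 kb. Counted by pair, their baits lay a median of 188 kb from a protein-coding gene, the distance of the many-partner bait chr16:46390065-46390538. How many fragments they share with the pairs of many-partner baits was not counted, so the likeness is only a description. Recurring pairs made up 6.54% of the listed pairs within a chromosome over more than 2 Mb and 22.5% of all listed pairs within chromosomes.

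**Figure D5:**
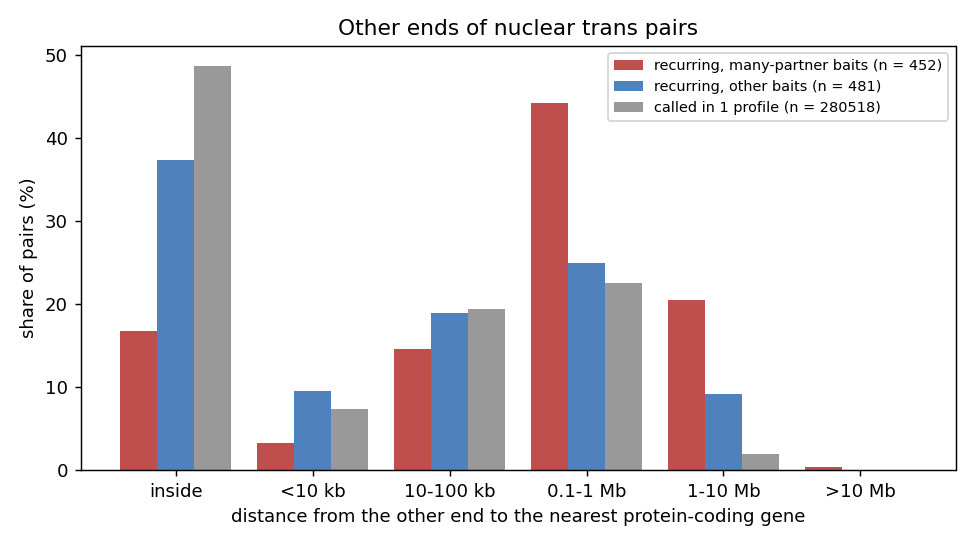
Share of pairs, in percent, by the distance from the other end to the nearest protein-coding gene, for recurring pairs of many-partner baits (n = 452), recurring pairs of other baits (n = 481) and pairs called in 1 profile (n = 280518). Other ends inside genes are 16.8% in the first class, 37.4% in the second and 48.7% in the last, while from 0.1 to 10 Mb many-partner baits have the highest shares and pairs called in 1 profile the lowest.

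Recurring contacts also had listed neighbours. A second listed pair within 5 fragments at the bait and 2 at the other end was found for 412 of 452 pairs of many-partner baits (91.2%) and for 114 of 481 pairs of other baits (23.7%). Of pairs called in 1 profile, 0.457% had one. Other pairs of the same bait count as neighbours, and many-partner baits were chosen for having many pairs. Their high share is therefore partly built in. Within other baits the share was 38.0% where the second score was at least 10 and 14.8% below it. In that split the stronger pairs had the other end in a gene in 29.9%, the weaker in 42.1%. It is made by a score that chose the members, so these shares are a description. Other ends that were not captured had a median length of 5289 bp in many-partner pairs, 5251 bp in pairs of other baits and 5262 bp in pairs called once. Over the whole list, 97.5% of uncaptured other ends were 5000 bp or longer, with a median of 5266 bp, against 625 bp for baits. Their size was thus nearly fixed beforehand, and the likeness of the medians is no finding.

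Where the other end was itself captured, the contact could be read from both sides. This held for 92 of the 933 pairs (9.86%), and for 30 of them (32.6%) the reverse pair was recurring too. The reverse pair was listed for 34 of the 92 (37.0%), and for 5090 of 6735 (75.6%) captured pairs called in 1 profile. Most recurring contacts between captured fragments were thus seen from 1 side only.

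Genes of the kinds that poised enhancers are known to control took part in few of the pairs. Lists of developmental, signalling, pluripotency and Polycomb genes (7 lists) were counted at fragments within 1 kb of a gene end, and 7 of 933 recurring pairs (0.750%) touched one. Of all listed nuclear pairs between chromosomes, 6272 (2.23%) did. Against the pairs of other baits alone, the 7 were 1.46% of 481 (exact 95% interval 0.587 to 2.98). The interval covers counting error over pairs only. Pairs share baits and were chosen by score, so it is no test against the share of all listed pairs. No recurring pair touched a HOX or EVX gene, of 687 listed, a mesoderm or endoderm gene, of 1028, or a pluripotency gene, of 118. At baits below the many-partner limit, only 0.172% of all listed nuclear pairs between chromosomes recurred. At that share few pairs, if any, would recur among so few, so these counts are no finding about the genes. Among the 7, 0 were called in 3 profiles and 0 came from a many-partner bait.

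The 7 pairs are named here because they are few, after their values were seen. The fragment within 1 kb of YAF2, a subunit of a variant Polycomb complex, met HDAC9 at 14.1 under DMSO, 24.0 under UNC6852 and 0 under UNC1999. WNT10B, a secreted Wnt ligand, had a pair at 12.7, 0 and 13.0. SLIT1, an axon guidance ligand, met COL26A1 at 5.08, 5.16 and 0. NEUROG1, a neurogenic transcription factor, met STK3 at 5.00, 0 and 5.88. The homeobox genes LHX9, LBX2 and SIX6 had pairs at 6.02, 0 and 6.89, at 0, 5.79 and 5.07, and at 0, 6.39 and 6.48. In 5 of the 7 both calls were below 7. Families outside the lists gave 1 pair at zinc finger (ZNF) genes of 1595 listed, 2 at olfactory receptor genes of 424, and none at protocadherin or histone genes, of 244 and 46.

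Mitochondrial fragments behaved as a small separate set. Of 23 listed pairs with a mitochondrial other end, 5 recurred (21.7%), and of 362 with a mitochondrial bait 4 did (1.10%). The bait chr17:22521401-22521558 lies within 1 kb of MTCYBP13, a nuclear copy of the mitochondrial cytochrome b gene. It scored 3653 under DMSO, 1959 under UNC6852 and 0 under UNC1999 with positions 15591 to 16569 of the mitochondrial genome, a fragment that reaches into cytochrome b. With positions 1 to 950 it scored 504, 315 and 0. Over its 19 listed pairs of any kind, its highest score in UNC1999 was 7.06.

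The other mitochondrial pairs also joined nuclear copies in part. The bait chr5:134923852-134924533, which holds MTCYBP18 and lies in PCBD2, scored 23.0 under DMSO, 8.83 under UNC6852 and 0 under UNC1999 with positions 14259 to 14868. On chromosome 1, the bait chr1:631630-632074, in MTCO1P12, scored 136, 75.9 and 84.5 with positions 6460 to 6903, and the reverse pair 130, 78.2 and 85.0. The bait chr1:628956-631629 scored 35.3, 18.8 and 25.9 with the same mitochondrial fragment, and the same in reverse. A mitochondrial bait at positions 14869 to 15059 met chr2:33662807-33667857 at 1189, 610 and 952, and the adjoining chr2:33667858-33672993 at 34.5, 39.6 and 48.6. All 5 pairs with a mitochondrial other end were lower in both compounds than in DMSO, as were 3 of the 4 with a mitochondrial bait. They come from 6 baits, and 2 contacts are counted from both ends.

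Differences from DMSO were taken between asinh scores, and both compounds were set against the same DMSO profile. Over the 933 nuclear pairs the median difference was 0.013 for UNC6852, with 481 higher and 452 lower, and -0.026 for UNC1999, with 450 higher and 483 lower. Over the 937 pairs with a nuclear other end, the UNC6852 median of 0.013 became -0.014 with quantile-normalized scores and -0.055 at a threshold of 7, so its sign depends on these settings. At many-partner baits the medians were -0.075 and -0.064. At other baits they were 0.079 and -0.0029. Over all listed nuclear pairs between chromosomes both medians were 0. The medians were small beside the spread of single pairs, whose quartiles were -0.78 and 1.04 for UNC6852 and -1.25 and 1.04 for UNC1999.

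Differences of at least 1 occurred in both directions. For UNC6852, 238 pairs (25.5%) were higher and 199 (21.3%) lower by at least 1, where 34.1% and 29.8% of all listed nuclear pairs between chromosomes were. For UNC1999 the counts were 240 (25.7%) and 263 (28.2%), where 36% and 29.8% were. The listed pairs are mostly at 0 in 2 profiles, so large differences are built into them. Among the 364 pairs called in 3 profiles, 26 (7.14%) were higher and 44 (12.1%) lower by at least 1 in UNC6852. In UNC1999 the counts were 27 (7.42%) and 29 (7.97%). Of all 13084 listed pairs called in 3 profiles, within or between chromosomes, 0.734% and 0.634% were in UNC6852, and 0.726% and 0.581% in UNC1999. Of the 364, 198 were lower and 166 higher in UNC6852, and 189 lower and 175 higher in UNC1999. The 13084 leaned the other way, with 5928 lower and 7145 higher in UNC6852, and 6261 and 6814 in UNC1999. The 364 share baits, and 252 of them belonged to many-partner baits. There 140 were lower and 112 higher in UNC6852, and 125 lower and 127 higher in UNC1999. At other baits 58 were lower and 54 higher in UNC6852, and 64 lower and 48 higher in UNC1999. The lean in UNC1999 was thus absent at many-partner baits.

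The number of calls differed between profiles, and the members' counts moved with it only in part. There were 84408 nuclear calls between chromosomes in DMSO, 96595 in UNC6852 and 101745 in UNC1999. Recurring pairs accounted for 724 of them in DMSO (0.858%), 793 in UNC6852 (0.821%) and 713 in UNC1999 (0.701%). UNC1999 thus had the most calls between chromosomes and the fewest called members. At other baits the called members numbered 325, 409 and 340, and at many-partner baits 399, 384 and 373, in the order DMSO, UNC6852, UNC1999.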

How the data were processed

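Each deposited value is a CHiCAGO score, which rates the reads of a pair of fragments against a model of the background, and the authors gave 1 score per pair and condition, pooled over replicates, per the file headers and the labels. The genome is GRCh38, per the submitters' processing notes. The aligner's and the caller's versions and settings are not given in the sources used here. Every listed pair reached 5 in at least 1 column. Read depth is unknown.

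The members, lists and limits were chosen with earlier results of these data known. A pair was called at a score of 5, and a many-partner bait had at least 5 recurring nuclear partners. Genes came from RefSeq GRCh38.p14 (59792 placed, 20056 protein-coding), without strand, so gene ends within 1000 bp were used. The text names the 20 pairs of other baits with the highest lowest score, the 10 baits with most partners with their leading partners, and the mitochondrial pairs. Names given outside this rule are marked or follow from a small count. Differences are of asinh scores. Intervals are exact Clopper-Pearson at 95%. The counting steps (pairs, many-partner baits, merging, quantile scaling) were tested on simulated data. Alternatives covered the threshold, scaling, merging and the limits. Python 3.11.15, numpy 2.4.6, pandas 2.3.3, scipy 1.17.1 and matplotlib 3.10.9 were used.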

Additional observations from a re-analysis of the deposited data

How the results depend on the processing

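Of 60 alternative values computed for these results, 39 stayed within the limits set for the same value and 21 moved. The count of 937 recurring pairs with a nuclear other end became 579 at a threshold of 10, 538 without the 1% of baits with most listed pairs (274 baits), and 368 when calls in 3 profiles were required. It was 644 at a threshold of 7, 705 with neighbouring other ends merged, and 933 without mitochondrial baits, an alternative added after seeing the data. The 20 many-partner baits became 44 with a limit of 3 partners and 8 with a limit of 10. The share of pairs with a nuclear other end that were higher in UNC6852 than in DMSO, 51.4% (exact interval 48.2 to 54.7), was 57.1% without many-partner baits. It fell below an even split with quantile-normalized scores (48.8%, median difference -0.014 in place of 0.013) and at a threshold of 7 (46.7%, median -0.055), so its direction turned under both. The 7 recurring pairs at listed genes became 3 at a reach of 0 bp, 15 at 5000 bp and 13 with gene bodies, and HOX genes had 0 in every setting. No paired analysis was possible because the scores were pooled over the replicates before deposit. For the same reason no replicate could be left out, and depth limits could not be given.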
